A study of Mus musculus with 3 samples.

Results

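The genes described here encode the enzymes that convert foreign chemicals in lungs of mice with a subcutaneous tumour. They are the cytochromes P450, the flavin monooxygenases, the epoxide hydrolases, the glutathione S-transferases, the UDP-glucuronosyltransferases and the sulfotransferases. Members were all genes whose symbol on the array's annotation carries the name of one of these families (Cyp, Fmo, Ephx, Gst, Ugt or Sult with a number), apart from Cyp2f2. This gave 70 of the 8251 genes with a symbol of their own, each read from its brightest probe set. A further 8 probe sets name several genes at once, family members among them, and were left out. The 3 Affymetrix arrays held lung RNA of mice with B16 melanoma, of mice with LLC (Lewis lung carcinoma) and of normal mice. Both are transplantable mouse tumour lines whose cells were injected under the skin of the back. The arrays are called B16, LLC and control below, and signals are given in this order. The labels give neither strain, sex, age, time after injection nor the number of animals behind a sample. With 1 array per group there are no replicates, so there is no error, p-value or replicate check for any difference below, and each describes these arrays and not the conditions.

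Drug-metabolising enzymes work in sequence. P450s and flavin monooxygenases add or expose an oxygen-containing group, epoxide hydrolases open the reactive epoxides that P450s can form, and transferases then attach glutathione, glucuronic acid or sulfate so that the product can be excreted. Hepatocytes hold the widest set of them. The lung carries a smaller set, mainly in club cells and other airway cells, in alveolar type 2 cells and, for Cyp1a1 after induction, in endothelium.

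Members were split by where the enzyme is known to be found into 18 lung-expressed genes, 38 liver-type genes and 11 genes for sterols, steroids and vitamins, while 3 were in no list. The split follows where an enzyme is best known, and several liver-type genes are active in other organs as well. It was made with earlier results of these data known, so comparisons of the lists are descriptions. Signals are given after scaling, in arbitrary units. The floor was 23.6, a signal exceeded by the upper 60% of all values; it is no detection call. Of the 70 genes, 28 were above the floor on all 3 arrays, 12 on 1 or 2 arrays and 30 on none. Of the lung-expressed genes 15 of 18 (83.3%) were above it on at least 1 array, against 18 of 38 liver-type genes (47.4%) and 74.5% of all genes. On the control array 12 lung-expressed and 7 liver-type genes had a signal of at least 100. The genes below the floor throughout included Cyp1a2, Cyp3a11, Cyp2d10, Cyp2d26, Cyp2c39, Cyp7a1 and Cyp8b1, which are enzymes abundant in liver, and also Cyp1b1, Cyp2b19 and Cyp2j6 of the lung-expressed list. The lung label was checked on marker genes. Sftpc, the surfactant protein C of type 2 cells, read 7482, 7296 and 6206, and Scgb1a1, the main secretory protein of club cells, read 5927, 6218 and 5424. Of 7 type 2 cell markers 7 were above the floor on each array, with summed signals of 15454, 16024 and 14470, and of 8 club and airway markers 6, 6 and 7 were, with sums of 9940, 9969 and 10168. Among the latter, Foxa2, a transcription factor of airway epithelium, read 111.8 in control and was below the floor with both tumours, at least 4.74-fold lower, and Cbr2, a carbonyl reductase, read 70.0, 52.5 and 782. These 2 of 7 measured club and airway markers (28.6%) were at least 2-fold lower with each tumour and 0 were higher, against 4.73% of all genes lower with B16 and 2.98% with LLC. Their part in the enzyme signals was not tested.

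**Figure D1:**
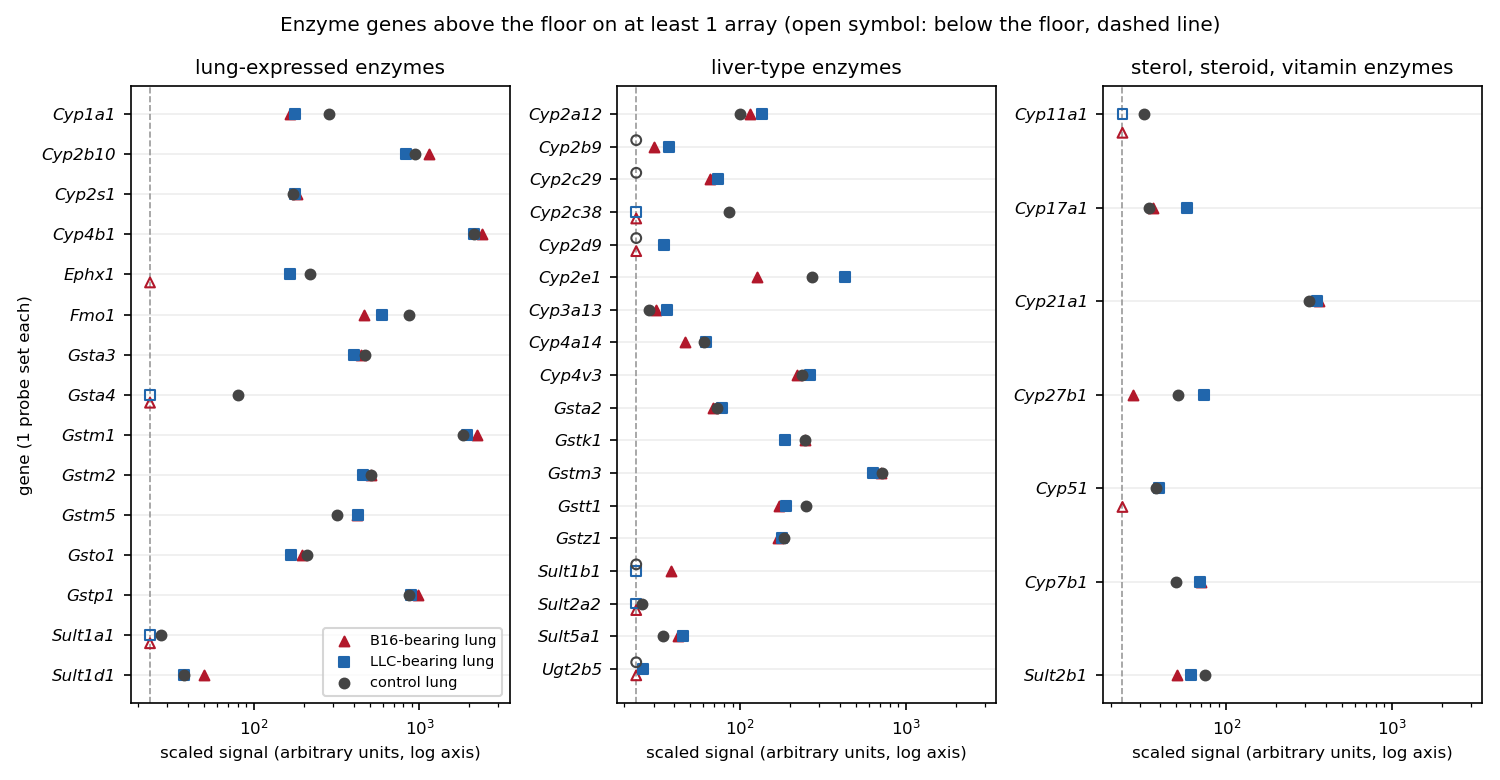
Scaled signal (log axis) of the 40 enzyme genes above the floor on at least 1 array, with 1 symbol per array and open symbols for values below the floor of 23.6. For most genes the 3 symbols lie close together; Ephx1, Cyp2e1, Gsta4, Cyp2c29 and Cyp2c38 are spread apart.

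Most measured members differed little between the lungs. A gene counted as measured when at least 1 of the 2 arrays compared exceeded the floor. Of the 38 members measured for B16 against control, 28 (73.7%) differed by less than 1.5-fold, against 76.9% of all 5968 genes measured. For LLC it was 32 of 39 (82.1%), against 81.6% of 6000 genes. A difference of at least 2-fold was found with B16 for 1 member above control, Cyp2c29, and 4 below it, Ephx1, Cyp2c38, Gsta4 and Cyp2e1; of all genes measured 3.23% were above and 4.73% below by as much. With LLC 1 member, Cyp2c29, was above and 2, Cyp2c38 and Gsta4, were below, against a background of 3.95% and 2.98%. Between the tumour-bearing lungs, Ephx1, Cyp2e1 and Cyp27b1 were at least 2-fold lower with B16 than with LLC and 0 were higher, where 4.93% and 3.41% of all 5984 genes were. As shares of the members measured, this is 2.63% above and 10.5% below control with B16, 2.56% and 5.13% with LLC, and 8.57% lower with B16 than with LLC. Such shares rest on 1 to 4 genes each. Both comparisons with control share the control array. With 2-fold differences counted in both tumour-bearing lungs, 1 of 37 members was higher and 2 were lower, against 1.13% and 1.39% of all 5821 genes. Of the 20 members with a mean signal of at least 100, Ephx1 and Cyp2e1 were lower with B16 than with control and than with LLC, and 0 passed 2-fold elsewhere. Among all genes that bright, 1.75% were higher and 2.03% lower with B16 against control, 2.06% and 1.20% with LLC against control, and 1.66% and 2.43% with B16 against LLC.

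**Figure D2:**
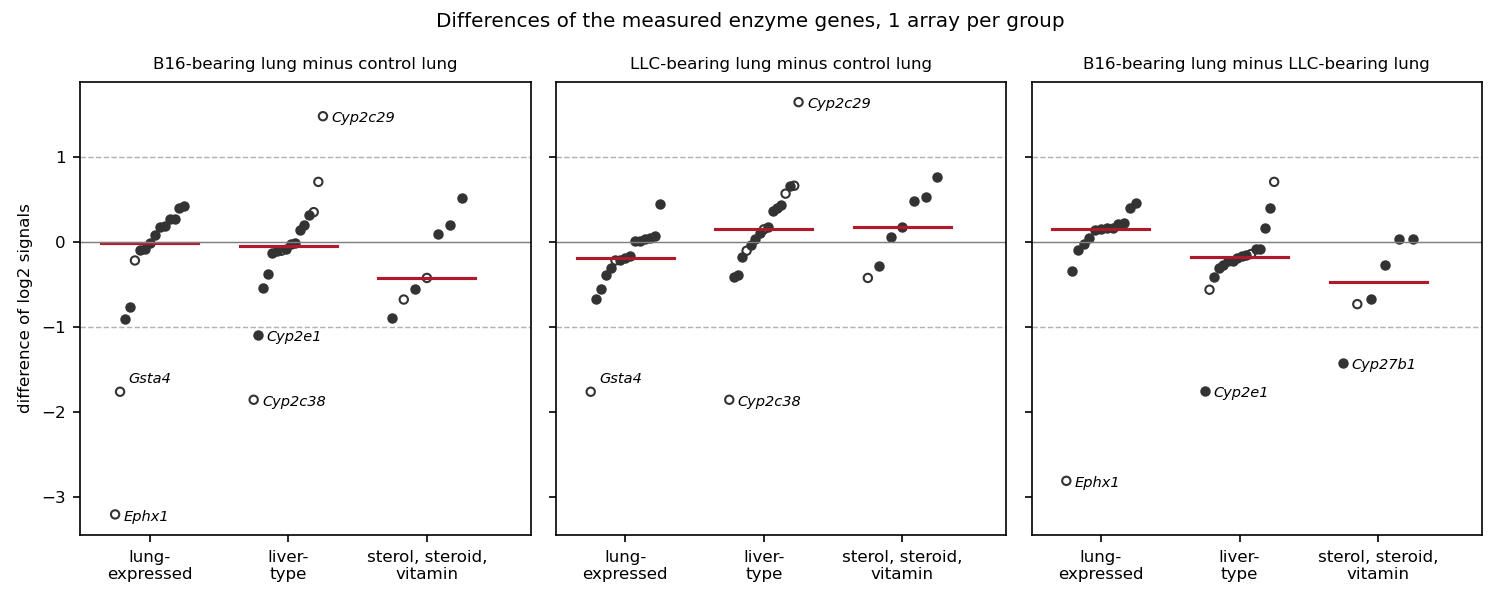
Difference of log2 signals for each measured enzyme gene in the 3 comparisons, by list; red bars are medians, dashed lines mark 2-fold, and open circles are lower bounds because 1 of the arrays was below the floor. The points past 2-fold are Ephx1, Gsta4, Cyp2c29, Cyp2c38, Cyp2e1 and Cyp27b1, and the left and middle panels share the control array.

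The 250 bases before the RefSeq transcription start (GRCm38.p6) are shown for 4 genes that stand for the patterns described next. On their brightest probe sets, Cyp1a1 was below control in both tumour-bearing lungs and Gstm1 lay within 1.5-fold of control, Ephx1 was below the floor with B16, and Cyp2e1 was lowest with B16 and highest with LLC. Capitals mark the core of the xenobiotic response element bound by the aryl hydrocarbon receptor (GCGTG, either strand); the core of the antioxidant response element (TGACNNNGC, either strand) was searched as well and is in none of these 4 stretches.
Cyp1a1, chr9:57697363-57697612, plus strand: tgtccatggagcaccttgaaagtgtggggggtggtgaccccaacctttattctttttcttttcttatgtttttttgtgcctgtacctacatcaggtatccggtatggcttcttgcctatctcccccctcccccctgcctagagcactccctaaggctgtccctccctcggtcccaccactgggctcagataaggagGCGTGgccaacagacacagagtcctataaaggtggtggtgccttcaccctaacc
Gstm1, chr3:108017974-108018223, minus strand: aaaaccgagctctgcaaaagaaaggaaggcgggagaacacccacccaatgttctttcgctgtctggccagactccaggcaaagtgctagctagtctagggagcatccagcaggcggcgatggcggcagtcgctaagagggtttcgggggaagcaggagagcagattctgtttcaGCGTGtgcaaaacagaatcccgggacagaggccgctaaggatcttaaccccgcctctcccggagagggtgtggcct
Ephx1, chr1:181017570-181017819, minus strand: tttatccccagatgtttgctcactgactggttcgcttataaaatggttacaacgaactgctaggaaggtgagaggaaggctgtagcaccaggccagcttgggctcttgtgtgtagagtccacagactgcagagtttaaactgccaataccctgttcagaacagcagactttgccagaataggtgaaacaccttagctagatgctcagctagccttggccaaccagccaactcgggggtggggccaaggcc
Cyp2e1, chr7:140763569-140763818, plus strand: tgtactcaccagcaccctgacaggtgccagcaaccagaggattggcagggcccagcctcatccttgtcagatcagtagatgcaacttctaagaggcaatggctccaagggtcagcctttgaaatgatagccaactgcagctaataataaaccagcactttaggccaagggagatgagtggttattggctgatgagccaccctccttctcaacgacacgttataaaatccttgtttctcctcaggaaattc
The GCGTG letters begin 54 bases before the start of Cyp1a1 and 76 bases before the start shown of Gstm1; a second Gstm1 start in RefSeq has the same letters 231 bases before it. They are absent from this window of Ephx1 and Cyp2e1. Promoters were matched for 56 of the 70 members. GCGTG was found in 8 of the 17 promoters of lung-expressed genes (47.1%; 7 of 16 genes, with Gstm1 counted at both starts), in 3 of 38 promoters of liver-type genes (7.89%) and in 28.2% of all 32851 mouse promoters of this length. TGACNNNGC was found in 2 of the 17 lung-expressed promoters, those of Gsta3 and Gstm5, in 0 of the 38 liver-type promoters and in 10.2% of all. A match is only a match of letters.

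The P450s typical of mouse lung were at like levels in the 3 lungs, apart from Cyp1a1. Cyp4b1, a P450 of club and type 2 cells that activates ipomeanol and other protoxins, had signals of 2399 with B16, 2140 with LLC and 2130 in the control lung, log2 differences from control of 0.17 and 0.0064; the second is near 0 and below it under 4 other scalings. Cyp2b10, a P450 controlled in liver by the receptor Nr1i3, had 1136, 826 and 945 (0.27 and −0.19). Cyp2s1, an epithelial P450, had 182, 177 and 173. These 3 genes lay within 1.20-fold of control in both lungs.

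Cyp1a1, which oxidises polycyclic aromatic hydrocarbons and is the standard target of the aryl hydrocarbon receptor, was lower in both tumour-bearing lungs on its brightest probe set. Its signals were 166, 178 and 282, 1.70-fold and 1.59-fold below control (−0.77 and −0.67). The robust SD of the log2 difference among all genes of similar signal (200 to 500) was 0.34 for B16 and 0.27 for LLC against control; this spread holds real differences as well as noise and is no replicate error. The second probe set of Cyp1a1 read 47.9, 52.4 and 42.2 and was not lower, so the pair disagree in direction. Ahr, which encodes the receptor, read 104, 121 and 170.5 (−0.72 and −0.49), and its partner Arnt 89.1, 108.7 and 102.1. Among all genes with a mean signal from 100 to 200, the range that holds Ahr, the robust SD was 0.43 and 0.33. Ahr and Arnt were chosen after their values were seen, and a link with Cyp1a1 was not tested.

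Fmo1, a flavin monooxygenase that oxidises nitrogen and sulfur atoms of drugs, was also lower in both. Its signals were 464, 591 and 869, which is 1.87-fold and 1.47-fold below control (−0.91 and −0.56), where the robust SD among all genes with signals of 500 and more was 0.26 and 0.20. It has 1 probe set, and the other flavin monooxygenase on the array, Fmo5, was below the floor throughout.

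Ephx1, the microsomal epoxide hydrolase, had the widest difference of all measured members. Its signal was below the floor with B16, 165.5 with LLC and 217.5 in the control lung. It was thus at least 9.22-fold lower than control with B16 (log2 bound −3.20) and 1.31-fold lower with LLC (−0.39). With B16 under the floor and control above it, no other direction was possible for B16. Ephx1 is read by 1 probe set, so no second value can be set beside it. Ephx2, the soluble epoxide hydrolase, was below the floor on every array.

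Most glutathione S-transferases differed little. Of 15 members 12 were measured, and 11 of these lay within 1.5-fold of control with B16 and 11 with LLC. This is 91.7% each, against 76.9% and 81.6% of all genes. Among all genes with a mean signal of at least 100 it was 84.9% and 89.4%. Of the 15, 10 read at least 100 on each array. Gstm1, a mu-class enzyme, had signals of 2223, 1929 and 1844 (0.27 and 0.065), Gstp1, the pi-class enzyme, 985, 891 and 864 (0.19 and 0.044), and Gsta3, an alpha-class enzyme that detoxifies aflatoxin epoxide in mice, 442, 403 and 470 (−0.089 and −0.22). Gstm2 had 509, 454 and 512 and Gsto1, an omega-class enzyme, 196, 168 and 209. Gstm5 was 421, 428 and 316 (0.41 and 0.44), above control in both lungs by less than 1.5-fold on a probe set of shared design. Its brightest probe set of unique design was below control instead, at 29.8 with LLC and 37.8 in control (−0.34) and below the floor with B16 (bound −0.68). Another Gstm5 probe set, of shared or relaxed design, went the other way with B16. It read 44.3 there and was below the floor with LLC and in control (bound 0.91). The exception was Gsta4, which conjugates the lipid peroxidation product hydroxynonenal. Its control signal was 80.1 and it was below the floor in both tumour-bearing lungs, at least 3.39-fold lower (bound −1.76); since control alone exceeded the floor, no other direction was possible. Of all genes with a mean signal from 50 to 100, the robust SD against control was 0.52 with B16 and 0.45 with LLC, and 0.62 and 0.57 from the floor to 50, the range that holds the mean of Gsta4.

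The mu-class genes are close in sequence and their probe sets did not always agree. The second probe set of Gstm1 read 131.5, 174.1 and 193.1, the reverse order of the brighter one, and that of Gstm2 read 149.6, 66.3 and 104.9. For Gstm3, a mu-class gene of the liver-type list, the brighter probe set read 708, 636 and 719 and the other 571, 560 and 455. Only the brightest of the 4 Gstm5 probe sets gave signals above 100 and the other three read at most 44.3, and what related transcripts add to the bright one was not tested. The brightest probe sets of Gstm1, Gstm3 and Gstm5, and of Cyp4b1 among the P450s, have names that mark probes shared by a gene family. In all 13 of the 70 members are read by probe sets of shared or relaxed design.

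Sulfotransferases and glucuronosyltransferases had low signals. Sult1d1, a sulfotransferase of catecholamines, had 49.9, 38.0 and 37.9. Sult1a1, a phenol sulfotransferase, had 27.5 in the control lung and was below the floor with both tumours, a bound of −0.22. Its other probe set never exceeded the floor. Of the 3 Ugt genes with a symbol of their own, only Ugt2b5 passed the floor, with 26.1 on the LLC array.

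The liver-type genes were then set beside the hepatocyte markers, because such markers were high on the LLC array. Of 26 hepatocyte marker genes, 9, 20 and 10 were above the floor with B16, LLC and control, with summed signals of 834, 7127 and 746. Alb, serum albumin, read 1327 with LLC and was below the floor in the other lungs. Apoh, Ttr, Tat, Hpd, F2 and Arg1 were below the floor on all arrays. The liver-type enzymes showed no such difference in number or sum. Of 38, 14 were above the floor with B16, 15 with LLC and 13 with control, and their summed signals were 2076, 2414 and 2316. Of all 8251 genes, 5561, 5696 and 5684 were above it in the same order. Most of each sum came from 7 genes with a mean signal of at least 100 (1754, 2021 and 2010). The brightest, Gstm3, is read by a probe set of shared design. Of the 38, 17, 12 and 13 read below 0, Cyp1a2 and Cyp2d26 on all 3 arrays. Whether such probe sets could show a rise was not tested. Against control 11 of 17 measured liver-type genes were above and 6 below with LLC. The median log2 difference was 0.15, beside −0.00072 over all genes. With B16 6 of 16 were above and 10 below, with a median of −0.053. Of the 17, 4 exceeded the floor with LLC alone and could only be above (Cyp2b9, Cyp2c29, Cyp2d9 and Ugt2b5), and 2 in control alone and could only be below (Cyp2c38 and Sult2a2), so these counts are a description. The median is the bound of Ugt2b5. Of the 11 above the floor on both arrays, 7 were above control with LLC and 4 below (median 0.11), and 3 and 8 with B16 (median −0.084). The LLC median was −0.041 when the floor was set at a signal of 100, where 7 genes were left. The lung-expressed genes had medians of −0.19 with LLC (6 of 15 above control, 9 below) and −0.0097 with B16 (7 above, 8 below); the B16 median was 0.13 over the 12 above the floor on both arrays.

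**Figure D3:**
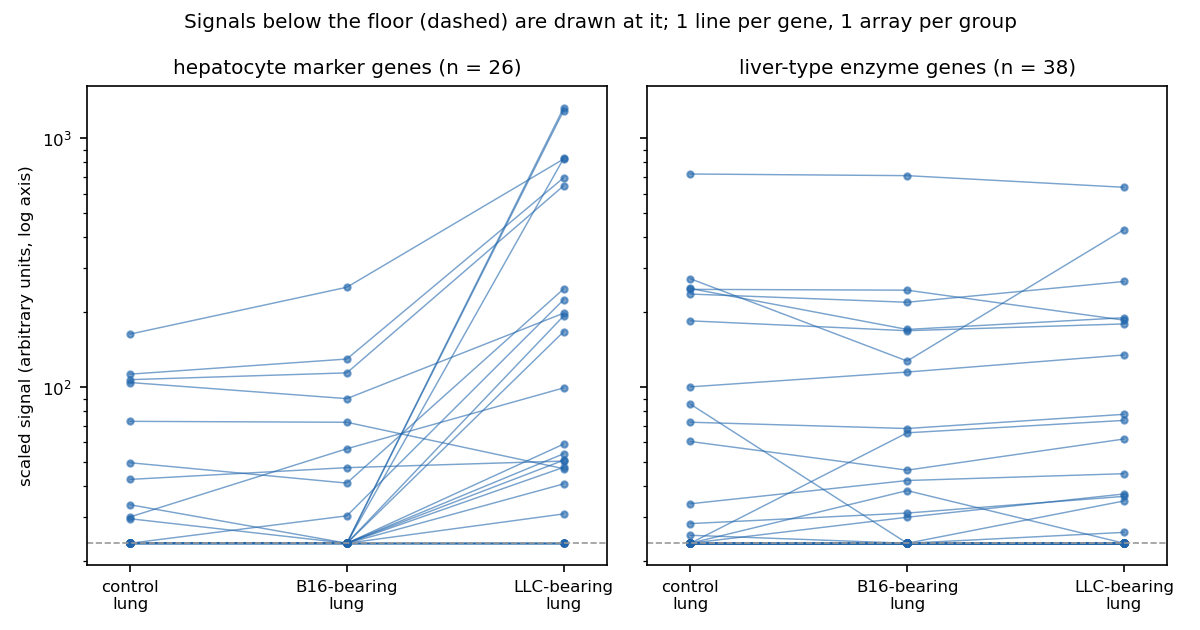
Scaled signals (log axis) of the 26 hepatocyte marker genes and the 38 liver-type enzyme genes on the 3 arrays, 1 line per gene, with values below the floor of 23.6 drawn at the floor. The marker genes include a group that climbs past 100 on the LLC array, while among the enzyme lines the steepest climb from B16 to LLC is that of Cyp2e1, to 429.

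Between the tumour-bearing lungs, 13 of 16 measured liver-type genes were lower with B16 than with LLC and 3 were higher (median −0.18), while 9 of 13 lung-expressed genes were higher with B16 and 4 lower (median 0.15), beside 47.7% of all genes higher with B16 and a median of −0.023. Over genes above the floor on both arrays, 2 of 13 liver-type and 9 of 12 lung-expressed genes were higher with B16, beside 48.7% of all genes. Most of these differences were small: 14 of the 16 (87.5%) and 12 of the 13 (92.3%) were under 1.5-fold, against 78.0% of all genes. Among all genes with a mean signal of at least 100 it was 86.7%. A difference between lists cannot be tested with 1 array per group.

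Cyp2e1, which oxidises ethanol, acetone and small solvents, was the liver-type gene with the widest difference among those above the floor on all arrays. Its signals were 127 with B16, 429 with LLC and 273 in control. It was 2.14-fold lower than control with B16 (−1.10), 1.57-fold higher with LLC (0.65) and 3.37-fold lower with B16 than with LLC (−1.75). With factors that equalise the medians of the arrays, the B16 difference was −0.99, just under 2-fold. Cyp2e1 is also expressed in fat, and among the adipocyte markers Adipoq, the hormone adiponectin, read 37.0, 114 and 97.1 and Fabp4, the fatty acid carrier of adipocytes, 82.8, 248 and 213 in the same order. The other markers were mixed. Lpl, the brightest, went the other way at 549, 351 and 427. Pck1 read 32.7, 62.8 and 30.2, Lep read 139.6, 125.7 and 134.6, and Retn was below 0 on all 3 arrays. On each array 5 of 9 markers were above the floor, summing to 841, 901 and 902, and Lpl weighs most in each sum. The part of adipocyte or hepatocyte RNA in the Cyp2e1 signal was not tested. In bulk tissue, fewer cells of a type and less RNA per cell cannot be told apart.

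Most other liver-type P450s were dim. Cyp2c29, a P450 of arachidonic acid and drug oxidation, was 65.6 with B16 and 73.5 with LLC and below the floor in the control lung, at least 2.78-fold and 3.12-fold higher. Its relative Cyp2c38 showed the opposite, with 85.5 in the control lung and values below the floor in both others, at least 3.62-fold lower, on a probe set of shared design. Each passed the floor on 1 side only, so each had to differ, and neither was above 100 on any array. Cyp2b9, a P450 of female mouse liver, was 30.01 and 37.2 in the tumour-bearing lungs and below the floor in control. Cyp2d9, a steroid hydroxylase of male mouse liver, passed the floor only with LLC, at 34.9. Cyp2a12 read 115, 135 and 100.3, Cyp3a13 31.2, 36.4 and 28.3, and Cyp4a14, a fatty acid hydroxylase induced through Ppara, 46.4, 61.9 and 60.5.

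The other liver-type members above the floor with LLC differed little between the lungs. Cyp4v3, a fatty acid hydroxylase, read 219, 266 and 237. Gstk1, the mitochondrial and peroxisomal transferase, read 245, 186 and 247, and Gstz1, which also acts in tyrosine breakdown, 169, 179.5 and 184.7. Gstt1, a theta-class enzyme, read 171, 190 and 249 and lay below control in both lungs (−0.55 and −0.39). Gsta2 read 68.2, 77.8 and 72.3 and Sult5a1 42.2, 44.9 and 34.0.

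Among the genes for sterols, steroids and vitamins, 7 of 11 were measured. Cyp21a1, a steroid hydroxylase of the adrenal gland, read 361, 353 and 314 from a probe set of shared design. Cyp27b1, which makes the active form of vitamin D, read 27.4 with B16, 73.7 with LLC and 51.3 in control, 2.69-fold lower with B16 than with LLC. Cyp51, the lanosterol demethylase of cholesterol synthesis, was below the floor with B16 and read 39.2 and 37.8 with LLC and in control. Cyp7b1, an oxysterol hydroxylase, read 70.8, 69.3 and 49.7 on one probe set and was below the floor on the other, and Sult2b1, a cholesterol sulfotransferase, 50.3, 60.8 and 73.9. The signals of Cyp27b1 and Cyp51 are in the range where the robust SD between the tumour-bearing lungs was 0.50 and 0.61.

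Partners and regulators of these enzymes were mostly even too. Of 25 on the array 20 were measured against control, with 17 (85.0%) under 1.5-fold for B16 and 17 for LLC, against 76.9% and 81.6% of all genes. Among all genes with a mean signal of at least 100 it was 84.9% and 89.4%, and 15 of the 25 read at least 100 in control. With B16 1 of the 20 was at least 2-fold higher and 0 lower, against 3.23% and 4.73% of all genes. With LLC 1 was higher and 1 lower, against 3.95% and 2.98%. Nfe2l2, the activator of antioxidant response genes, read 497, 510 and 525, and Nr1i2, the pregnane X receptor, was below the floor throughout. Gss, the glutathione synthetase, was the gene at least 2-fold higher in both (82.9 and 83.9, with control below the floor). The gene lower with LLC was Gsr, the glutathione reductase, with 95.1, 41.0 and 123.9; it and the genes named after it were chosen after their values were seen. Of 43 genes of other detoxification routes 31 were measured against control. Of these, 2 were at least 2-fold higher and 3 lower with B16, and 1 higher and 2 lower with LLC. These are 6.45% and 9.68% with B16 and 3.23% and 6.45% with LLC, against the same shares of all genes, and each rests on 1 to 3 genes. Aldh3a1, an aldehyde dehydrogenase, read 101 with B16, was below the floor with LLC and read 25.3 in control, and Aox1, an aldehyde oxidase, read 115.5, 84.1 and 52.9. Adh1, an alcohol dehydrogenase, was below the floor with B16 and read 58.1 and 115 in the other lungs. Akr1c6, a hydroxysteroid dehydrogenase of liver, was above the floor with B16 at 27.2 and with LLC at 83.0, and below it in control. The pair lower in both were Cbr2, given above, and Akr1b8, an aldo-keto reductase, with a control signal of 91.5 and values below the floor with both tumours.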

How the data were processed

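Lung total RNA of 3 samples, 1 per group, was labelled as biotinylated cRNA by the manufacturer's procedure, per the labels' protocols. The values deposited are linear intensity readings, 1 per probe set. They include values below 0, so some signal had been subtracted, though which signal cannot be told from them. Their means without the lowest and highest 2% were 100.1 in each column, so 1 factor per array seems to have been applied; the software and the summary method are not named in the labels. Medians were 41.9, 44.5 and 44.6 for B16, LLC and control. There is no sequencing depth for arrays; with so few of them, their number limits precision.

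Of 12488 probe sets, 66 manufacturer controls were left out. GEO's platform annotation gives 1 symbol for 10833, several for 396 and none for 1193; all 70 members were found by gene ID in RefSeq and 0 were renamed. Each array was multiplied by 1 factor that sets the median log2 ratio to control to 0 over the brighter probe sets (0.987, 1.01 and 1). The floor was the 40th percentile of all scaled signals, and lower ones were raised to it before taking log2. A fold with 1 side under the floor is a lower bound. Steps ran in Python 3.11.15 with pandas 2.3.3 and were tested on simulated data. Changes were planted there in bright probe sets only, so differences of dim genes and bounds at the floor were not tested. Every measured lung-expressed gene was named, every member at least 2-fold different, and the liver-type genes above the floor with LLC; other named genes were chosen after their values were seen. The members and lists were chosen with earlier results of these data known. Alternatives were other scalings, floors, probe set rules and a 1.5-fold threshold. RefSeq promoters (GRCm38.p6) were searched for motifs only. The 3 groups came from the titles and the source name.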

Additional observations from a re-analysis of the deposited data

Results flagged for a closer look

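Cyp2e1 was the only member on opposite sides of the control lung by at least 1.5-fold in both tumour-bearing lungs. Its log2 difference from control was −1.10 with B16 and 0.65 with LLC. The difference between the models was not tested, since each group is 1 array.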

How the results depend on the processing

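No paired analysis was possible because each group is 1 array. Of 102 alternative values of the counts and medians, 81 stayed within 1.5 times the count or within 0.1 of the median. The counts of members at least 2-fold different, 5 with B16 and 3 with LLC against control and 3 between them, depended on the floor. They were 10, 9 and 7 with the floor at the 30th percentile, 2 and 0 against control at the 60th, and 2, 0 and 1 at a signal of 100, in the same order. That was of 45, 48 and 43 members measured at the 30th, 24 and 26 at the 60th, and 20 each at 100. Of all genes at the 30th, 347 were higher and 502 lower of 6674 with B16, and 396 and 359 of 6717 with LLC. Between the tumour-bearing lungs it was 365 and 525 of 6747. At the 60th it was 59 and 65 of 4267 with B16 and 73 and 40 of 4306 with LLC. At 100 it was 37 and 33 of 3543, 43 and 18 of 3519, and 31 and 57 of 3524. At 1.5-fold the member counts were 10 of 38, 7 of 39 and 6 of 35. Of all genes, 562 were higher and 819 lower of 5968 with B16, and 558 and 544 of 6000 with LLC. Between the tumour-bearing lungs it was 547 and 767 of 5984. Over genes above the floor on both arrays the member counts at 2-fold were 1 of 28, 0 of 30 and 2 of 30. Of all such genes, 125 were higher and 177 lower of 5277 with B16, and 143 and 108 of 5380 with LLC. Between the tumour-bearing lungs it was 126 and 171 of 5273. The B16 median of lung-expressed genes against control became 0.13. Above a signal of 100 lay 20 members on the control array, against 35 above the floor. For the liver-type genes the LLC median of 0.15 became 0.00199 with the floor at the 60th percentile, −0.041 at a signal of 100 and 0.27 without probe sets of shared design. Factors that equalise array medians shifted the B16 median of all genes from −0.0072 to 0.099. The B16 medians then were 0.10 for lung-expressed and 0.057 for liver-type genes against control, and 0.27 for lung-expressed genes against LLC. With the floor at the 60th percentile, Cyp2c38, Gsta4, Cyp27b1 and the LLC difference of Cyp2c29 were under 2-fold. Cyp2c29 with B16 could not be measured there. Ephx1 against control stayed past 2-fold in all 9 settings (−1.12 to −4.50), while against LLC it was −0.73 at a floor of 100. Its B16 signal of 2.86 was under even the lowest floor of 9.59, so these values are bounds that follow the floor. For any gene with only 1 of the 2 arrays above the floor, no other sign was possible. No difference past 2-fold changed sign. Smaller ones did in 38 of 835 alternative values, in 15 genes; Gstm5 went from 0.41 and 0.44 to −0.68 and −0.34 without probe sets of shared design. The 20th percentile was not run as a floor, because it lies below 0 (−0.51); the 30th percentile, the array medians and the limit to genes above the floor on both arrays were chosen after seeing the data. Signals near the floor limit the dim genes.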
